A study of Mus musculus with 14 samples.

Results

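The genes described here are 36 genes of sterol and fatty acid synthesis, taken from a list of symbols and matched exactly, out of 55487 genes counted. All 36 were found. They cover 5 regulators, 7 genes of the mevalonate steps, 11 of the squalene and sterol steps, 6 of fatty acid synthesis and 7 of desaturation and elongation. Their RNA was measured in 14 libraries of cells sorted from mouse colon. Lamina propria macrophages, which lie in the connective tissue under the gut lining, were sorted as CD45+ CD11b+ CD64+ MHCII+ cells. Epithelial cells were sorted as CD45- EpCAM+ CD44+ cells.

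Animals of the genotype Tsc2fl/fl Lyz2+/+ carried floxed Tsc2 and no recombinase, and are called wt. Animals of the genotype Tsc2fl/fl Lyz2cre/+ also carried Cre in 1 copy of the Lyz2 gene, which is active in myeloid cells, and are called cre. Tsc2 was floxed in every group, including the controls. Effects of the deletion and of the Cre allele cannot be told apart, since every Cre carrier was also floxed. Tsc2 encodes a brake on mTORC1, a kinase complex that promotes growth. Macrophages gave 3 wt libraries (numbered 2, 4 and 6) and 3 cre libraries (8, 9 and 10). Epithelial cells gave 4 wt libraries (2, 4, 6 and 7) and 4 cre libraries (5, 8, 9 and 10). Values by library follow these orders throughout. A number shared by both cell types may mark 1 animal, which the labels do not state. The 3 cre macrophage libraries were all from males, against 1 male and 2 females in wt. In epithelial cells 3 of 4 cre and 2 of 4 wt libraries were from males. The age of the animals is not given in the sources used here.

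Cells build cholesterol from acetyl-CoA through mevalonate and squalene, and fatty acids from acetyl-CoA through malonyl-CoA. The SREBP transcription factors switch on both routes. When sterols are scarce, SCAP escorts SREBP from the endoplasmic reticulum to the Golgi, where it is cut and released to the nucleus. When sterols are plentiful, INSIG proteins hold the complex back, and INSIG1 is itself made under SREBP control. mTORC1 is known to promote SREBP activity.

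Libraries held 7269103 to 9364551 counts. Summed macrophage markers stood at 7762 to 16292 CPM in macrophage and 28.0 to 93.6 CPM in epithelial libraries. CPM are counts scaled to the size of each library. Summed epithelial markers stood at 10073 to 16205 CPM in epithelial and 60.9 to 429 CPM in macrophage libraries. Tsc2 did not pass the test in macrophages. Its level was 42.9, 38.1 and 25.6 CPM in wt and 32.7, 35.7 and 26.9 CPM in cre (log2 change -0.14, SE 0.23, edgeR adjusted p = 0.860). Nor did it pass in epithelial cells, with 50.1, 46.0, 44.1 and 48.9 CPM in wt and 55.7, 53.3, 47.6 and 54.1 CPM in cre (log2 change 0.14, SE 0.11, edgeR adjusted p = 0.414). Reads of exons that are not floxed enter these counts, which therefore check the deletion weakly. The series text gives 3 control mice and the library names 4, so 2 wt epithelial libraries could share an animal.

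The promoters of 3 genes are shown because they bring together the regulator INSIG1 and the 2 sterol genes whose levels went with it most closely in epithelial cells, as given further on. The sequences are from RefSeq's annotation of GRCm38.p6 and end before the first base of the gene. They are written 5′ to 3′ on the strand of the gene, and capitals mark TCACNCCAC, CACGTG or CCAAT on either strand. The stretches lie at chr5:28071162-28071362 (plus strand) for Insig1, chr13:119690101-119690350 (plus strand) for Hmgcs1 and chr9:42264301-42264550 (minus strand) for Sc5d.
Insig1: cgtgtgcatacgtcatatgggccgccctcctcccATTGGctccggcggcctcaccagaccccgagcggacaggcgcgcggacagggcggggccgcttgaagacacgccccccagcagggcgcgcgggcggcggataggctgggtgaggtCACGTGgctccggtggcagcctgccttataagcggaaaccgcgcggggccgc
Hmgcs1: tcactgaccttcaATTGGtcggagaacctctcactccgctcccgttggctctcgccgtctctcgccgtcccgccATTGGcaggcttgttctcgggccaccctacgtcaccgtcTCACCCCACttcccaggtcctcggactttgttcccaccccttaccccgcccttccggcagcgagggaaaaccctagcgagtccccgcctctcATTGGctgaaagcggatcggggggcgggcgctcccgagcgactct
Sc5d: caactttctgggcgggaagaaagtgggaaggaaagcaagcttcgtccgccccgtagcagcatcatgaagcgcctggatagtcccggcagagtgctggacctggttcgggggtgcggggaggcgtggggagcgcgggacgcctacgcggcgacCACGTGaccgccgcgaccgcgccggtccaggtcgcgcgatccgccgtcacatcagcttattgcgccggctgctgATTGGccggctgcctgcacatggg

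TCACNCCAC, a form of the sterol regulatory element bound by SREBP, was searched on both strands in windows from 250 bases before to 50 after the annotated start. RefSeq windows matched 30 of the 36 genes. The element was found in 1 of these, Hmgcs1, where it begins 137 bases before the start, against 1.37% of the 10846 tested genes with a window. CACGTG, an E-box that SREBP1 and other factors can bind, was found in 6 of 30 (20%), against 11.3% of tested genes. These were Scap, Insig1, Hsd17b7, Sc5d, Dhcr7 and Elovl5. In Insig1 it begins 101 bases and in Sc5d 98 bases before the start that RefSeq gives. The stretch printed for Insig1 stops 49 bases short of that start, where the gene begins in the counted annotation. CCAAT, the site of the common promoter factor NF-Y, was found in 25 of 30 (83.3%), against 42.6% of tested genes. GGGCGG, a GC box of the kind bound by Sp1, was found in 24 of 30 (80%), against 65.5%. These motifs can overlap each other, a match is only a run of letters, and windows share base composition with the genes they precede.

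Levels of the 36 genes are compared with each other only by FPKM, which divides by gene length. In wt macrophages the highest was Elovl5, which lengthens polyunsaturated fatty acids, at 60.1 ± 9.43 FPKM (SD, n = 3). Insig1 followed at 45.4 ± 4.24, then Elovl1 at 40.9 ± 20.2 and Fads1 at 34.6 ± 7.94 FPKM (SD, n = 3 each). The spreads of Insig1, Elovl1 and Fads1 overlap. In wt epithelial cells the highest was Acss2, which makes acetyl-CoA from acetate, at 38.4 ± 7.51 FPKM (SD, n = 4), followed by Elovl1 at 34.8 ± 1.71 and Acly at 29.3 ± 4.73 FPKM (SD, n = 4 each). The spreads of Acss2 and Elovl1 overlap, and in wt epithelial 6 Acss2 was the lower, at 27.8 against 34.2 FPKM. Acss2 ranked 23 of 36 in wt macrophages, at 3.30 ± 0.356 FPKM (SD, n = 3). The lowest 3 genes were Me1, Acaca and Acacb in both cell types of wt animals.

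**Figure D1:**
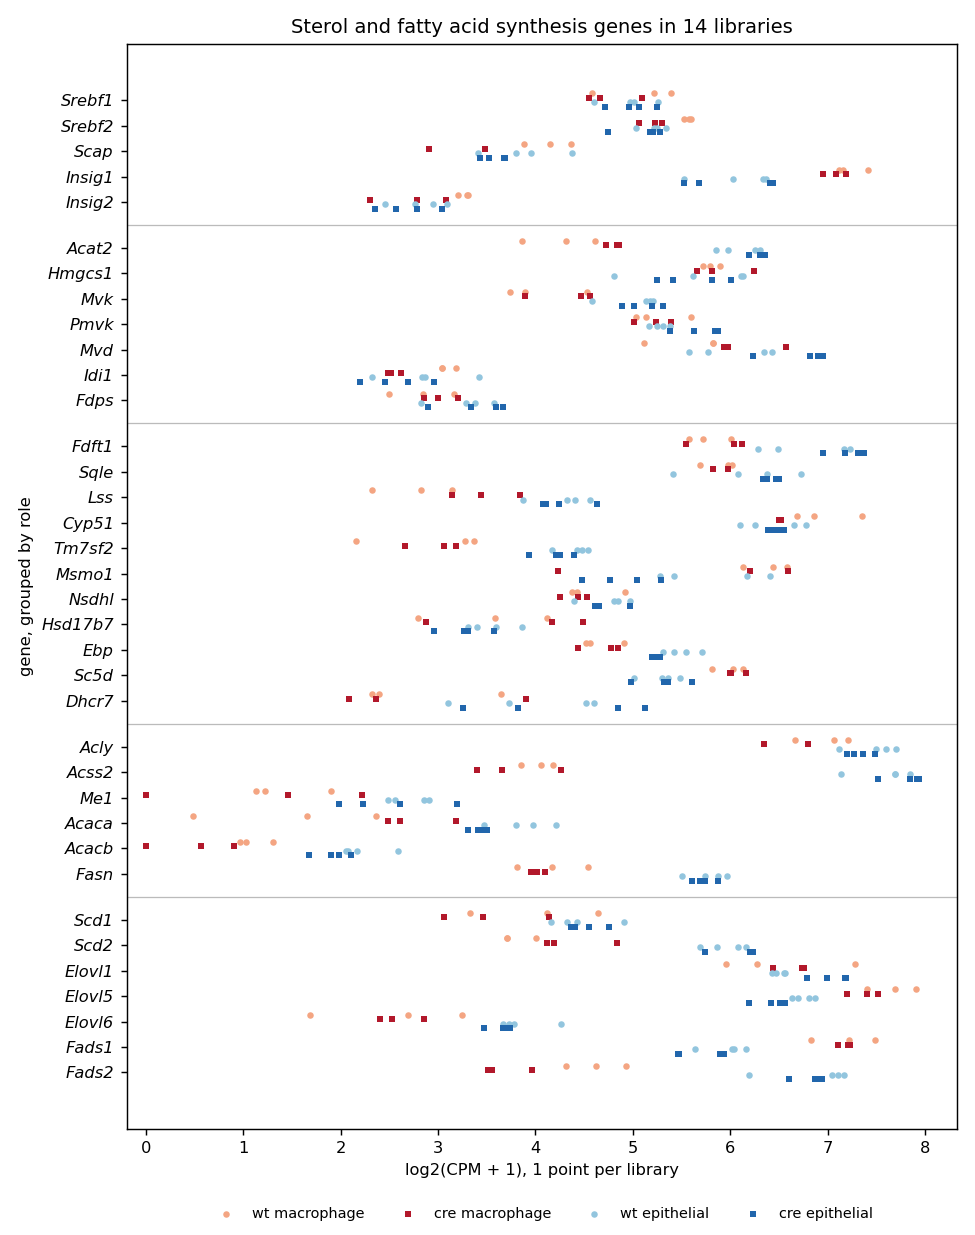
Level of each of the 36 genes in each of the 14 libraries, as log2(CPM + 1), with genes grouped by role and 1 point per library. Acss2, Fads2, Scd2 and Fasn show 2 separate clouds by cell type, with epithelial cells to the right, while Fads1 and Insig1 show the macrophages to the right.

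Between cell types, 15 of the 36 genes differed by at least 2-fold with an edgeR adjusted p under 0.05, which is 41.7%, against 52.2% of the 16375 genes tested. The direction was uneven: 13 were lower in macrophages and 2 were higher. Over all genes tested, 22.5% were lower in macrophages and 29.7% higher by the same rule. The median log2 difference was -0.49 over the 36 genes and 0.07 over all genes. These values compare macrophages with epithelial cells with both genotypes weighted equally. Macrophage libraries also held RNA of other cells: fibroblast and muscle markers summed to 1160 to 6080 CPM and B and plasma cell markers to 567 to 2673 CPM, against 2.28 to 7.73 and 4.56 to 20.3 CPM in epithelial libraries. Their part in these differences was not tested.

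**Figure D2:**
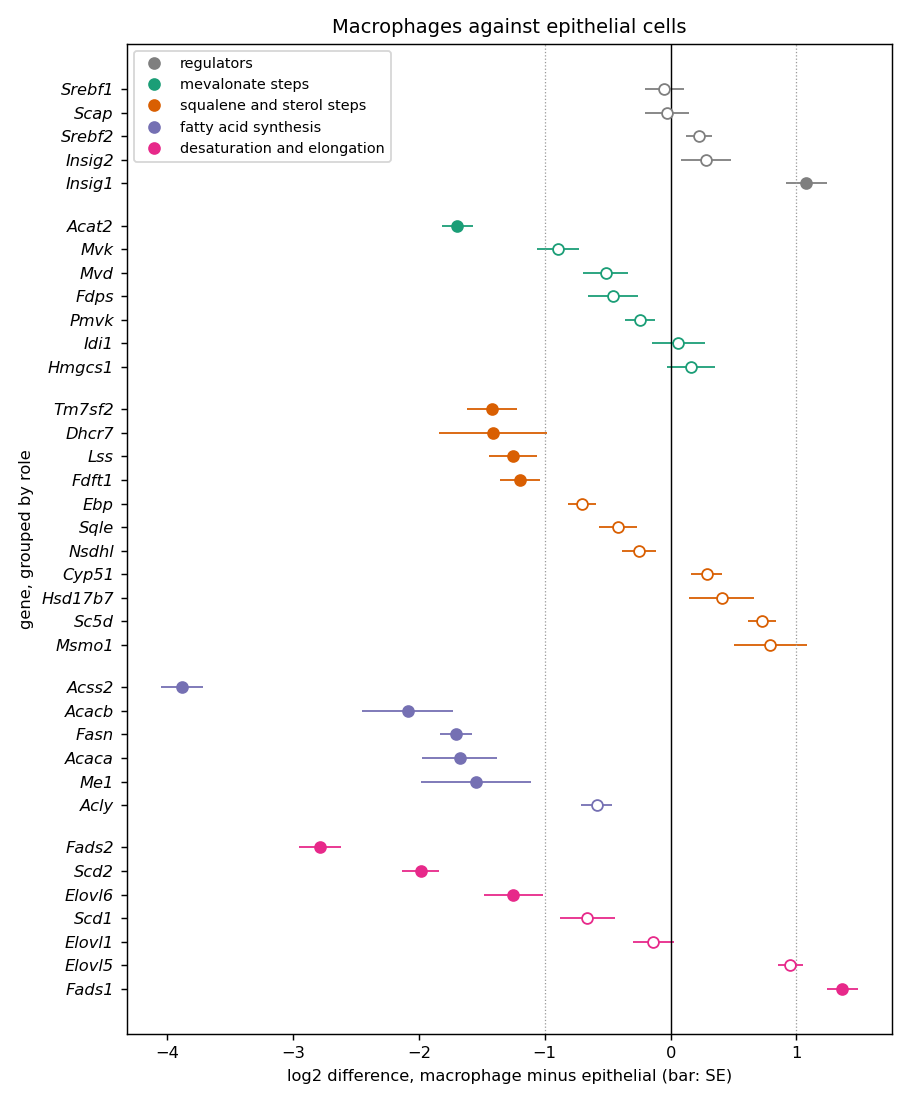
Difference between macrophages and epithelial cells for each gene, as log2 (macrophage minus epithelial) with its SE, with filled circles for genes that pass the test and dotted lines at a 2-fold difference. Genes of fatty acid synthesis lie to the left of 0 in 6 of 6 cases, and Fads1 and Fads2 lie at opposite ends of their group.

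Fatty acid synthesis was the role with the most genes lower in macrophages, 5 of 6, and the log2 difference was negative in 6 of 6 (median -1.69). Acss2 (chromosome 2, 155517948 to 155585724, GRCm38) stood at 17.1, 15.6 and 13.4 CPM in wt and 9.58, 11.6 and 18.1 CPM in cre macrophages. In epithelial cells it stood at 206, 206, 140 and 229 CPM in wt and 230, 182, 244 and 242 CPM in cre. Every epithelial library lay far above every macrophage library, a 14.7-fold difference (log2 difference -3.88, SE 0.16, edgeR adjusted p = 1.55e-12). About 9.12% of the exonic bases of Acss2 overlap genes on the other strand, whose reads cannot be told apart in unstranded libraries.

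Fasn encodes fatty acid synthase, the enzyme that assembles palmitate. It stood at 22.2, 17.0 and 13 CPM in wt and 16.1, 15.2 and 14.5 CPM in cre macrophages, and at 44.5 to 61.7 CPM over the 8 epithelial libraries. The groups did not overlap, and Fasn was 3.26-fold lower in macrophages (log2 difference -1.70, SE 0.13, edgeR adjusted p = 2.90e-09). Acaca and Acacb encode the acetyl-CoA carboxylases, which make malonyl-CoA, and Me1 encodes malic enzyme, which supplies NADPH. Their log2 differences were -1.68 (SE 0.30), -2.09 (SE 0.36) and -1.55 (SE 0.44), and all 3 passed. They rest on few reads in macrophages: Acaca had 3 to 51 counts per library, Acacb 0 to 11 and Me1 0 to 23. Acly, which makes acetyl-CoA from citrate, was lower by less than 2-fold (log2 difference -0.59, SE 0.12, edgeR adjusted p = 3.06e-04).

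In desaturation and elongation, Fads1 and Fads2 went in opposite directions. They encode the delta-5 and delta-6 desaturases, which act in sequence in making long polyunsaturated fatty acids such as arachidonic acid, and they lie near each other on chromosome 19 (10182888 to 10196877 and 10062765 to 10101746). Fads1 stood at 148, 178 and 113 CPM in wt and 137, 150 and 147 CPM in cre macrophages. In epithelial cells it stood at 64.8, 70.7, 49.0 and 63.7 CPM in wt and 58.4, 43.2, 43.4 and 60.4 CPM in cre. Every macrophage library was above every epithelial library, 2.57-fold overall (log2 difference 1.36, SE 0.12, edgeR adjusted p = 2.94e-08).

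Fads2 stood at 29.5, 23.6 and 18.9 CPM in wt and 10.8, 10.4 and 14.6 CPM in cre macrophages. In epithelial cells it stood at 131, 143, 72.4 and 137 CPM in wt and 96.4, 116, 122 and 117 CPM in cre. Here every macrophage library was below every epithelial library, 6.90-fold overall (log2 difference -2.79, SE 0.17, edgeR adjusted p = 1.65e-10). By FPKM, Fads1 exceeded Fads2 by 4.57 to 6.86 times in wt macrophages and 9.13 to 13 times in cre macrophages. In epithelial cells the order was the reverse, and the ratio of Fads1 to Fads2 was 0.424 to 0.615 in wt and 0.324 to 0.551 in cre.

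**Figure D3:**
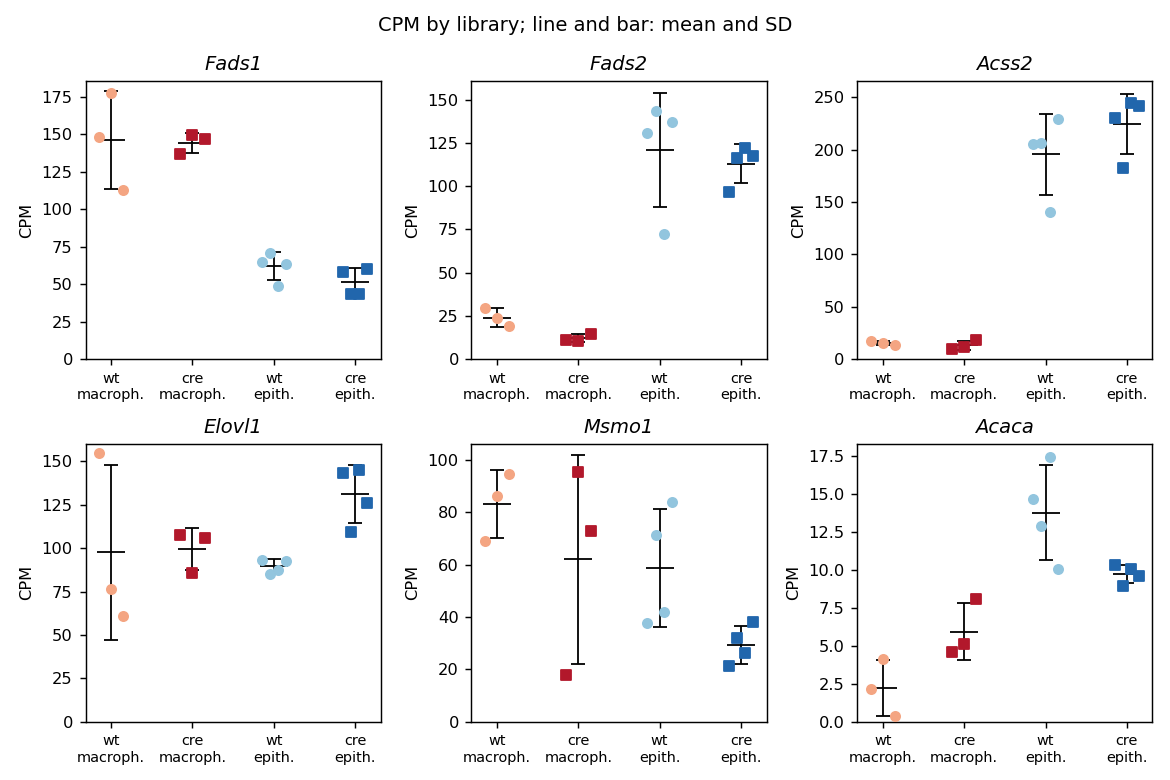
CPM of 6 genes in each library by group, with lines and bars for the mean and SD (n = 3 in each macrophage group and 4 in each epithelial group). Fads1 is higher and Fads2 and Acss2 are lower in macrophages, Elovl1 is higher in all 4 cre than in all 4 wt epithelial libraries, and Msmo1 and Acaca vary widely among macrophage libraries.

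Stearoyl-CoA desaturases make monounsaturated fatty acids. Scd2 stood at 15.1, 12.1 and 12.1 CPM in wt and 16.4, 17.3 and 27.5 CPM in cre macrophages, and at 50.8 to 74.4 CPM over the 8 epithelial libraries. It was 3.96-fold lower in macrophages (log2 difference -1.98, SE 0.15, edgeR adjusted p = 2.29e-09), with no overlap between cell types. Scd1 differed by less than 2-fold (log2 difference -0.66, SE 0.22, edgeR adjusted p = 0.0128). The 2 genes are similar paralogs, and reads may be split between them or lost, which was not tested. In epithelial cells Scd1 was below Scd2 by FPKM in every library, with a ratio of 0.302 to 0.465, whereas in macrophages the ratio ran from 0.411 to 2.24, so neither gene was always the higher.

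Elongases add carbons to fatty acids of different lengths. Elovl6, which acts on palmitate, was lower in macrophages (log2 difference -1.25, SE 0.23, edgeR adjusted p = 1.34e-04). Elovl5 was higher in macrophages by just under 2-fold (log2 difference 0.95, SE 0.10, edgeR adjusted p = 1.91e-07), with 147 to 240 CPM against 71.9 to 116 CPM. Elovl1, which acts on saturated very long chains, had a log2 difference of -0.14 (SE 0.16, edgeR adjusted p = 0.464). By FPKM, Elovl5 stood at 53.3 to 167 times Elovl6 in macrophages of wt animals and at 64.8 to 78.0 times in those of cre animals, against 11.9 to 21.1 times in all epithelial libraries. The macrophage ratios rest on few Elovl6 reads, 15 to 64 counts in wt and 25 to 50 in cre. The value of 167 comes from wt macrophage 4, with 15.

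Of the regulators, Insig1 was the only one of 5 that differed by 2-fold. It stood at 169, 138 and 142 CPM in wt and 135, 145 and 123 CPM in cre macrophages. In epithelial cells it stood at 64.5, 80.0, 44.9 and 81.9 CPM in wt and 45.1, 85.6, 50.1 and 84.2 CPM in cre. Every macrophage library was above every epithelial library (2.11-fold, log2 difference 1.08, SE 0.16, edgeR adjusted p = 1.44e-05). The log2 difference was 0.95, below 2-fold, without cre epithelial 5. Insig1 exceeded its relative Insig2 by 6.86 to 37.5 times by FPKM in the 14 libraries. The highest ratio, in cre macrophage 8, rests on 23 Insig2 counts. The genes for the SREBP proteins did not pass, with log2 differences of -0.05 (SE 0.16) for Srebf1 and 0.23 (SE 0.10) for Srebf2. Those of Scap, the escort, and Insig2 were -0.03 (SE 0.17) and 0.28 (SE 0.20).

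In the mevalonate steps 1 of 7 genes passed. Acat2, which joins 2 acetyl-CoA molecules, stood at 23.5, 13.6 and 18.9 CPM in wt and 28.0, 25.5 and 27.7 CPM in cre macrophages, and at 57.0 to 81.2 CPM over the 8 epithelial libraries. It was 3.24-fold lower in macrophages (log2 difference -1.69, SE 0.12, edgeR adjusted p = 2.12e-09). The mevalonate kinase gene Mvk was lower by just under 2-fold (log2 difference -0.90, SE 0.17, edgeR adjusted p = 1.32e-04). Log2 differences of the other 5, Hmgcs1, Pmvk, Mvd, Idi1 and Fdps, lay between -0.52 and 0.16. Hmgcs1 encodes the synthase that makes HMG-CoA, Pmvk and Mvd the next kinase and the decarboxylase, and Idi1 and Fdps enzymes that build farnesyl diphosphate. About 26.7% of the exonic bases of Fdps overlap another gene on the same strand, so its values are uncertain.

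In the squalene and sterol steps 4 of 11 genes passed, and all 4 were lower in macrophages. They were Tm7sf2 (log2 difference -1.42, SE 0.20), a sterol reductase, Dhcr7 (-1.41, SE 0.43), which catalyses a last step to cholesterol, Lss (-1.25, SE 0.19), which folds squalene epoxide into lanosterol, and Fdft1 (-1.20, SE 0.16), which makes squalene. Their edgeR adjusted p ran from 4.17e-06 to 0.00777. Fdft1 overlaps Ctsb, a lysosomal protease gene on the other strand, over 18.3% of its exonic bases. Tm7sf2 overlaps Vps51 on the same strand over 12.1%. The other 7 genes had log2 differences from -0.70 for Ebp to 0.79 for Msmo1. Sc5d stood at 0.73 (SE 0.11), with 55.3 to 70.8 CPM in macrophages against 30.5 to 47.7 CPM in epithelial cells and no overlap. Cyp51, Hsd17b7, Nsdhl and Sqle, the squalene epoxidase gene, lay between -0.42 and 0.41.

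Among epithelial libraries, Hmgcs1 followed Insig1. Hmgcs1 stood at 48.1, 68.4, 27.1 and 68.9 CPM in wt and 36.9, 55.2, 41.6 and 63.6 CPM in cre, in the same libraries in which Insig1 ran from 44.9 to 85.6 CPM. In wt the order of the libraries was the same for both genes. In cre it was the same except that cre 8 had slightly more Insig1 than cre 10 (85.6 against 84.2 CPM) and less Hmgcs1. Over the 8 libraries Pearson's r on log2(CPM + 1) was 0.921 and Spearman's rho 0.786. Removing the genotype means left r at 0.921, and leaving out the libraries farthest in Insig1, wt epithelial 6 and cre epithelial 5, gave 0.868. Hmgcs1 ranked 14 among 13552 other genes by its r with Insig1. About 12.1% of the exonic bases of Hmgcs1 overlap an antisense gene. This is a description of 8 libraries, chosen after the values were seen, and the libraries differ in more than these genes.

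The other genes did not all share this order. Sc5d had r = 0.738 (0.821 without the same 2 libraries) and Hsd17b7 r = 0.678 (0.764). Srebf1 had r = 0.735 and Fads2 r = 0.703, which came to 0.208 and 0.070 without those 2 libraries and so rest on them. Over the 35 other genes r ran from -0.509 for Pmvk to 0.921 for Hmgcs1. In the 6 macrophage libraries Hmgcs1 had r = -0.623 with Insig1, and 0.770 without wt macrophage 2 and cre macrophage 10, so no relation is described there. The library wt epithelial 6 was the lowest of its group in 18 of the 36 genes, against 32.2% of all genes, and it also had the largest ribosomal RNA share of the epithelial libraries, 31.8%. The part of that share in these orders was not tested.

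**Figure D4:**
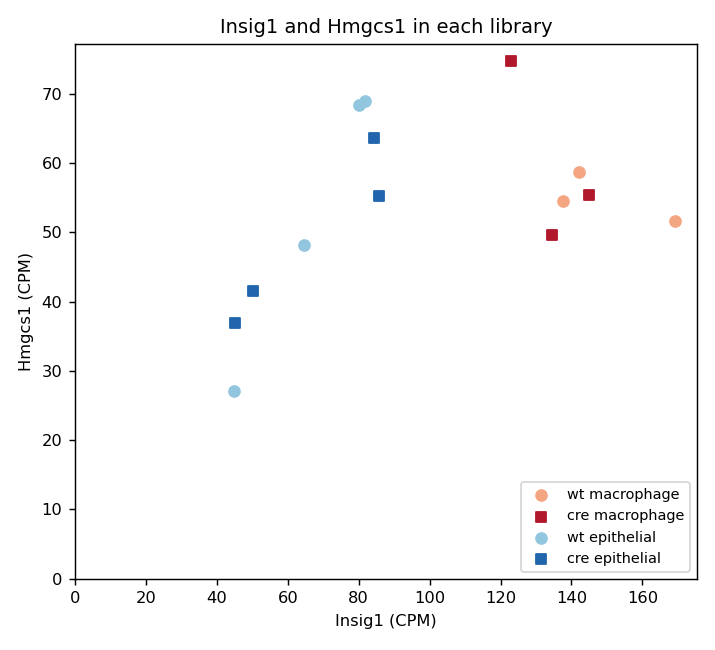
Hmgcs1 against Insig1 in CPM, 1 point per library, for the 4 groups. The 8 epithelial libraries run from low in both (44.9 and 27.1 CPM) to high in both, and the 6 macrophage libraries lie to the right with more Insig1 and no shared order.

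In macrophages, none of the 35 genes tested passed between cre and wt. edgeR called 0 of 35 at an adjusted p under 0.05, against 0.944% of the 14087 genes tested (0.731% higher and 0.213% lower in cre), and 7 of 35 (20%) had an unadjusted p under 0.05, against 12.8% of all genes tested. DESeq2 called 1, Fads2, against 3.67% of all genes tested. Log2 changes were positive for 16 and negative for 19, with a median of -0.03 against 0.00 over all genes. Acacb was too low to be tested, with 8, 7 and 11 counts in wt and 0, 7 and 3 counts in cre.

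Fads2 had the smallest p of the 35. The CPM given above were 18.9 to 29.5 in wt and 10.4 to 14.6 in cre, so the groups did not overlap, with a log2 change of -0.99 (SE 0.25, edgeR adjusted p = 0.133). With sex in the model it was -0.66 (edgeR adjusted p = 0.664). The 5 regulators all had negative log2 changes, from -0.14 for Insig1 to -0.88 for Scap, with a median of -0.36. Scap stood at 19.6, 13.7 and 16.7 CPM in wt and 6.5, 10.2 and 10.2 CPM in cre (log2 change -0.88, SE 0.28, edgeR adjusted p = 0.222). About 13.2% of its exonic bases overlap a gene on the other strand.

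Groups that did not overlap were found for 11 of the 35 genes. In 5 of these, which is 14.3%, every cre macrophage library was above every wt one (Lss, Mvd, Acaca, Acat2 and Scd2), against 9.71% of all genes tested. In 6, which is 17.1%, every cre library was below (Insig2, Cyp51, Scap, Idi1, Srebf2 and Fads2), against 10.1%. Acaca had the highest log2 change, 1.44 (SE 0.66, edgeR adjusted p = 0.408), with 18, 28 and 3 counts in wt and 27, 41 and 51 in cre. Lss (0.81), Scd2 (0.66), Mvd (0.59) and Acat2 (0.55) had log2 changes with edgeR adjusted p from 0.344 to 0.384. Msmo1, which removes methyl groups from the sterol ring, stood at 69.2, 86.0 and 94.6 CPM in wt and at 17.8, 95.4 and 72.9 CPM in cre macrophages, with cre 8 far below the other 5 libraries.

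Summed markers of several cell types stood at different levels in wt and cre in the macrophage sort. Fibroblast and muscle markers summed to 3558 to 6080 CPM in wt and 1160 to 3043 CPM in cre. Dendritic cell markers summed to 935 to 1915 CPM in wt and 603 to 742 CPM in cre, and macrophage markers to 7762 to 10724 and 12410 to 16292 CPM. Log2 changes were negative for 8 of 9 fibroblast and muscle markers and for 8 of 8 dendritic cell markers, while 10 of 12 macrophage markers were positive. Over all genes tested, 6977 of 14087 were negative. Few single markers passed. edgeR called 0 of 9 fibroblast and muscle markers, 1 of 8 dendritic cell markers (lower) and 1 of 12 macrophage markers (higher). The shares over all genes were 0.213% lower and 0.731% higher. The part of these cell types in the values above was not tested. In bulk samples fewer cells of a type and less RNA per cell cannot be told apart.

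In epithelial cells 2 of 36 genes passed, which is 5.56%, against 9.17% of the 13553 genes tested. Elovl1 rose and Msmo1 fell. Log2 changes were positive for 14 and negative for 22, with a median of -0.06 against -0.05 over all genes, and 7 of 36 (19.4%) had an unadjusted p under 0.05, against 27.3% of all genes tested.

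Elovl1 (chromosome 4, 118428093 to 118432953) stood at 93.4, 85.2, 87.5 and 92.8 CPM in wt and 144, 109, 145 and 126 CPM in cre epithelial cells. Every cre library was above every wt library, and the wt libraries lay close together. Elovl1 rose by 0.53 on the log2 scale (SE 0.11, edgeR adjusted p = 0.0109). Without cre epithelial 9 the adjusted p was 0.0569, and with the ribosomal RNA share as a covariate the log2 change was 0.39 (edgeR adjusted p = 0.159).

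Msmo1 (chromosome 8, 64718139 to 64733792) stood at 37.8, 71.2, 41.8 and 84.0 CPM in wt and 21.2, 32.0, 26.1 and 38.0 CPM in cre epithelial cells. The groups met at their edges, with cre 10 just above wt 2. Msmo1 fell by 1.02 on the log2 scale (SE 0.26, edgeR adjusted p = 0.0390). Its adjusted p was above the threshold without any 1 of cre 5, cre 8, cre 9, wt 4 or wt 7, at 0.0653 to 0.135. With the ribosomal RNA share as a covariate it was 0.231, and by limma on FPKM 0.0588.

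The mevalonate genes Mvd and Pmvk came close without passing. Mvd stood at 53.5, 80.7, 46.7 and 85.4 CPM in wt and 118, 74.4, 123 and 112 CPM in cre, with cre 8 within the wt range (log2 change 0.67, SE 0.20, edgeR adjusted p = 0.0569). Pmvk had a log2 change of 0.41 (SE 0.13, edgeR adjusted p = 0.0625), with 35 to 40.8 CPM in wt and 40.6 to 57.6 CPM in cre. Elovl5 was lower in every cre library, at 71.9 to 93.6 CPM against 98.1 to 116 CPM, but did not pass (log2 change -0.34, SE 0.11, edgeR adjusted p = 0.0586). These 3 genes passed without cre epithelial 8, with edgeR adjusted p of 0.0141 for Mvd, 0.0163 for Pmvk and 0.0356 for Elovl5, and DESeq2 called all 3. Of all genes tested, 14.1% passed without cre epithelial 8 and 14.5% with DESeq2. None of the 3 passed in males only, in the joint fit of 14 libraries or with the ribosomal RNA share as a covariate. The groups of Ebp, a sterol isomerase gene, also did not overlap (log2 change -0.29, SE 0.12, edgeR adjusted p = 0.139). Thus every cre library was above every wt one in 1 gene (2.78%, against 10.6% of genes tested) and below in 2 (5.56%, against 6.31%).

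Library measures were also compared between the epithelial groups, and neither share below passed at an adjusted p under 0.05. The ribosomal RNA share was 7.37% to 26.7% in cre and 18.5% to 31.8% in wt (exact two-sided permutation p = 0.114, 0.229 adjusted over 4 tests). The mitochondrial share was 10.4% to 10.7% in cre and 11.6% to 18.1% in wt (exact two-sided permutation p = 0.0286, the smallest that 4 against 4 allows, 0.114 adjusted). Summed epithelial markers stood at 10073 to 12019 CPM in wt and 13266 to 16205 CPM in cre, and stem cell and Wnt target markers at 205 to 286 and 185 to 218 CPM. Single epithelial markers went both ways. Log2 changes were positive for 6 of 9 tested and negative for 3, and edgeR called 3 higher and 1 lower. Krt8 stood at 2268 to 2866 CPM in wt and 3557 to 4133 CPM in cre. Cdh1 stood at 319 to 366 CPM in wt and 237 to 313 CPM in cre. Beyond the covariate values above, the part of these measures and markers in the results for Elovl1 and Msmo1 was not tested.

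**Figure D5:**
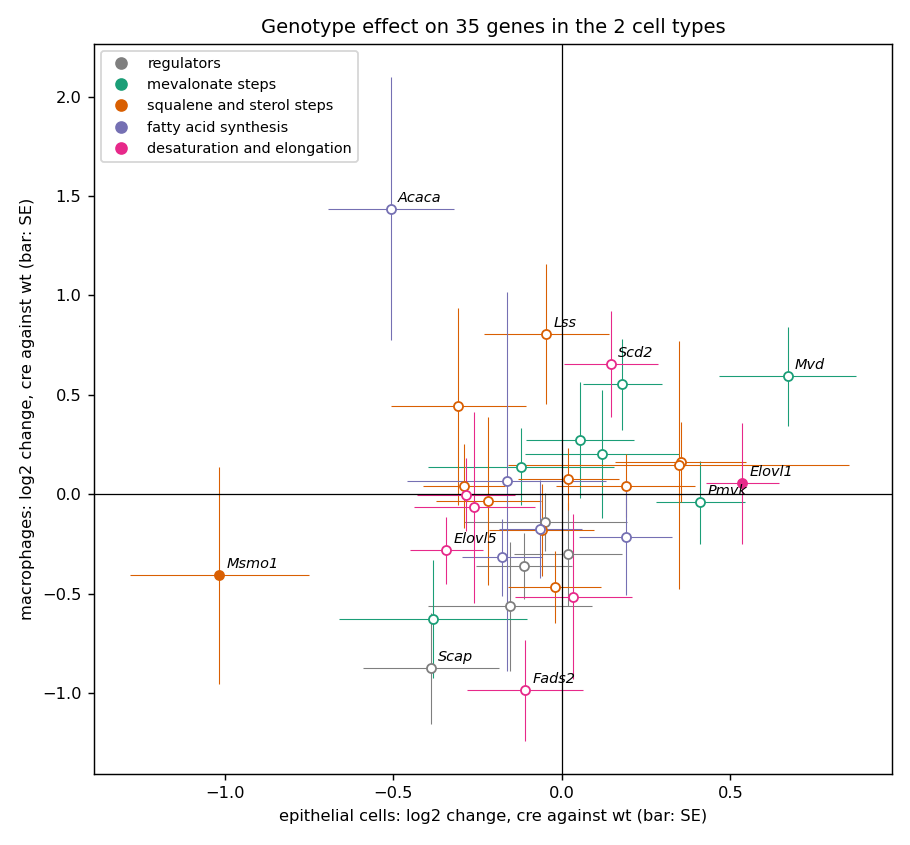
Log2 change between cre and wt in macrophages (vertical axis) against that in epithelial cells (horizontal axis) for 35 genes, with SE bars and filled circles for the 2 genes that pass in epithelial cells. Msmo1 lies to the left at -1.02 and Elovl1 to the right at 0.53, while Acaca and Fads2 lie at the top and bottom without passing in macrophages.

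The difference between the genotype effects in the 2 cell types passed for 0 of 36 genes by edgeR, against 0.702% of 16375 genes tested. Of all genes tested, 0.470% passed with a more positive change in macrophages and 0.232% with a more negative one. An unadjusted p under 0.05 was found for 3 of the 36 genes (8.33%), against 15.3% of all genes tested. For Acaca the macrophage effect exceeded the epithelial effect by 1.93 on the log2 scale (SE 0.59, edgeR adjusted p = 0.141). DESeq2 called this gene alone of the 36, against 3.27% of all genes tested. Without wt macrophage 4 the edgeR adjusted p was 0.0391. In epithelial cells Acaca stood at 14.7, 12.9, 17.5 and 10.1 CPM in wt and 10.3, 8.93, 10.1 and 9.59 CPM in cre. For Fads2 the difference of effects was -0.91 (SE 0.31, edgeR adjusted p = 0.191) and for Lss 0.83 (SE 0.37, edgeR adjusted p = 0.309). So no gene of the list is shown to respond differently in the 2 cell types.

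Genes of neighbouring pathways were counted in 7 further lists. Between cell types, fatty acid oxidation had 13 of 21 genes lower in macrophages and 0 higher (median log2 difference -1.34), including Cpt2, a mitochondrial carnitine acyltransferase gene, at -2.85 (SE 0.12). Supply of acetyl-CoA and NADPH had 5 of 10 lower and 0 higher (median -1.09), including the mitochondrial citrate carrier gene Slc25a1 at -1.64 (SE 0.10). Sterol esterification, transport and efflux went the other way, with 9 of 16 higher in macrophages and 1 lower (median 1.64). Lipa, which frees cholesterol from its esters in lysosomes, stood at 5.43 (SE 0.13) and the cholesterol exporter gene Abca1 at 4.99 (SE 0.18).

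The 9 genes of SREBP processing and sterol sensing had 1 higher, Erlin1, and 0 lower. The isoprenoid branch, which uses farnesyl diphosphate for ubiquinone and protein prenylation, had 6 of 14 lower and 0 higher. Glycerolipid synthesis and storage had 2 of 17 higher and 6 lower, and other elongation, desaturation and activation genes 4 of 18 higher and 8 lower. The background for these counts is 29.7% higher and 22.5% lower.

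Between genotypes, these lists held 1 gene that passed in macrophages, where they had 9, 14, 16, 10, 16, 15 and 19 genes tested. Over all genes tested in macrophages 0.944% passed. Idh1, the cytosolic isocitrate dehydrogenase gene that supplies NADPH, rose by 1.22 on the log2 scale (SE 0.19, edgeR adjusted p = 0.0267). Over all genes, 2 passed in macrophages with sex as a covariate and 18 with the ribosomal RNA share. The values of Idh1 in those fits are not given here. In epithelial cells 10 genes passed and all 10 rose, against 5.64% of genes tested that were higher and 3.53% lower. Slc25a1, Pgd and Mlycd were in the supply of acetyl-CoA and NADPH (3 of 10). Cpt2, Echs1 and Hadha were in fatty acid oxidation (3 of 21), and Rce1 and Rabggta in the isoprenoid branch (2 of 14). Agpat2 was in glycerolipid synthesis (1 of 17) and Tecr in elongation (1 of 15). SREBP processing had 0 of 9, and sterol esterification, transport and efflux 0 of 15. Log2 changes of the 10 genes ran from 0.31 for Tecr to 0.67 for Rabggta. None of the 10 passed as higher in males only, where 0 genes in all were called higher. With the ribosomal RNA share as a covariate 2 genes in all were called higher in epithelial cells, and 9 in the joint fit of 14 libraries. The effect differed between cell types for Idh1, by 1.30 (SE 0.24, edgeR adjusted p = 0.0185), and for Lpin3, a phosphatidate phosphatase gene, by -1.79 (SE 0.34, edgeR adjusted p = 0.0193). With the library number as replicate block neither passed, with values of 1.13 for Idh1 (edgeR adjusted p = 0.119) and -1.82 for Lpin3 (edgeR adjusted p = 0.192).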

How the data were processed

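Gene counts per library were deposited by the authors as whole numbers, made with STAR 2.5.2b, Picard 2.19.2 and DESeq2 1.24.0 on GRCm38, per the submitters' processing notes. The authors also deposited FPKM, which equal the counts divided by a value per gene and a factor per library. The sources used here do not give the counter, annotation, strand setting or each tool's role. RNA was amplified with Smart-seq2 and sequenced as single reads, per the labels' protocols. This keeps no strand, so overlapping or antisense genes cannot be told apart, and similar paralogs may share reads. Genes were tested by the robust quasi-likelihood F test of edgeR 4.0.16 under R 4.3.3, after filterByExpr (minimum count 10) and TMM scaling, with Benjamini-Hochberg adjustment over all genes tested and a threshold of 0.05. Genotype was fitted in each cell type alone. The difference of genotype effects and the cell type difference were fitted on all 14 libraries. A cell type difference also had to reach 1 on the log2 scale. Each SE was obtained from the log2 change and F. CPM use TMM scaling over 14 libraries.

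Every gene of the list is named. Of neighbouring pathways, up to 3 genes per list and genotype comparison with the smallest adjusted p among those that passed are named, and examples between cell types were chosen after their values were seen. The genes and lists were chosen with earlier results of these data known. Promoter windows came from RefSeq and exon overlaps from GENCODE M21. Alternatives were RLE scaling, DESeq2 1.42.0, no filter, limma 3.58.1 on log2(FPKM + 1) for genes averaging at least 1 FPKM, sex or ribosomal RNA share as covariate, males only, 1 joint fit, removal of a GC and length trend, the replicate block, and leaving out each library. On simulated data with known changes, the macrophage fit recovered 21% of 2-fold and 80% of 4-fold changes, and the epithelial fit 77% and 97%. The fit of the difference recovered 11% and 68%, and that of cell type 45% and 97%. The cell type rule itself asks for a 2-fold difference. Its 45% for 2-fold changes is therefore limited by that cut and cannot be set beside the other fits.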

Additional observations from a re-analysis of the deposited data

Results flagged for a closer look

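In 72 groups of 4 epithelial libraries, 1 for each gene and genotype, 4 had a library that stood apart from the other 3 by more of the group's range than Dixon's 95% critical value allows. Chance gives about 1 in 20 such groups. Mvk, the mevalonate kinase gene, was lowest in wt epithelial 2 at 23.0 CPM, against 34.1 to 36 CPM in the other 3 (gap 0.8524 of the range). Nsdhl, a sterol dehydrogenase gene, was highest in cre epithelial 10 at 30.3 CPM, against 23.5 to 24.2 CPM (0.8959). Scd2 was lowest in cre epithelial 8 at 52.6 CPM, against 72.9 to 74.4 CPM (0.9303). Elovl6 was highest in wt epithelial 6 at 18.2 CPM, against 11.7 to 12.7 CPM (0.8344). The libraries cre epithelial 8 and wt epithelial 6 also had the largest ribosomal RNA share of their groups, 26.7% and 31.8%. The other flagged libraries, wt epithelial 2 and cre epithelial 10, did not, at 20.6% and 10.6%. The part of that share was not tested.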

How the results depend on the processing

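None of the 32 gene results checked changed direction under any alternative run. These were the 15 that passed between cell types and those with an unadjusted edgeR p under 0.05 in the other comparisons. They were picked by the main fit and rerun on mostly the same libraries, so a stable direction was likely beforehand. Between cell types the same 15 of the 36 genes passed under RLE scaling, DESeq2, no filter, sex as covariate and the replicate block, and limma on FPKM called 10, of which 9 were among the 15, with 4994 genes in all. Insig1, at 0.95 without cre epithelial 5, fell below 2-fold. In macrophages 0 of 35 genes passed, except 1, Fads2, with DESeq2 and in the joint fit of 14 libraries. Among all genes, macrophage calls numbered 517 with DESeq2, 299 without a filter, 2 with sex as covariate, 32 in males only (3 cre libraries against 1 wt library, assumed to vary like them), 374 in the joint fit and 18 with the ribosomal RNA share as covariate. Leaving out 1 library gave 29 (without cre 10) to 87 (without cre 9), with 44, 41, 35 and 62 without cre 8, wt 2, wt 4 and wt 6. In epithelial cells, of the 36 genes 5 passed with DESeq2 and 5 without a filter, 0 in males only, in the joint fit and with the ribosomal RNA share, and 1 with the GC and length trend removed. All genes called there were 1967 with DESeq2, 5 in males only, 19 in the joint fit, 3 with the ribosomal RNA share and 627 with the trend removed. The shares of all genes tested were 14.5% with DESeq2, 6.58% without a filter and 4.63% with the trend removed, against 9.17% in the main fit. The share of calls that were higher in cre was 61.5%, against 82.3% with limma on FPKM and 80.1% with the trend removed. Leaving out 1 epithelial library gave 178 (without cre 9) to 1947 (without cre 8) calls, and 0 to 4 of the 36 genes for the same libraries. For the difference of effects all genes called were 535 with DESeq2, 195 without a filter and 297 with limma on FPKM, and 54 to 229 without 1 library. Of the 36, 1 passed with DESeq2, and 0 to 1 without 1 library (1 without wt macrophage 4). Acaca, Acacb and Me1 had few counts in macrophages, which limits the precision of their values there.

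With the library number as replicate block, the difference of effects was called for 8 genes in all and 0 of the 36, and the cell type difference for 15 of the 36. Same-numbered macrophage and epithelial libraries deviated from their group means with correlations of -0.061 to 0.092, of which 0 of 6 exceeded 0.1, and 3 of 6 libraries matched their own number best, so the numbers are not shown to pair the libraries.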
